A study of Xenopus laevis with 3 samples.

Results

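The microRNAs described here are those counted in the orphan library, the deepest of 3 libraries with microRNA counts from the accessory olfactory bulb of Xenopus laevis larvae. Members were all entries named for a Xenopus species (X. tropicalis, X. laevis or X. borealis), with entries of identical mature sequence merged, which left 170 distinct sequences from 178 entries, out of 1272 entries of 80 species prefixes in the whole table. The larvae were at stage 45, 15 days old, and had been raised in the orphan condition. Larvae of the same stage from sibling and non-sibling rearing gave the other libraries, and no contrast between conditions was made. The labels give neither a genotype nor details of the rearing, and mention 15 larvae without saying whether that is per condition. Tissue labelled neuronal was cut from 50 µm frozen sections, so that the library is a pool of whatever cells the cuts held. There was 1 library (n = 1), with no replicate error and no test.

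MicroRNAs are short RNAs that guide Argonaute proteins to messenger RNAs, mostly by pairing through the seed, bases 2 to 8 from the 5′ end. MicroRNAs with a common seed form a family that can bind overlapping sets of messages. The accessory olfactory bulb is the forebrain relay of the vomeronasal system, and in vertebrate brain miR-9, miR-124 and miR-128 are among the best known microRNAs of neural progenitors and neurons.

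The 14 sequences with 100000 or more counts are shown because they hold most of the library. Each is written as the deposited table gives it, 5′ to 3′, with the seed in capitals. Sequences with a shared seed stand next to each other.
miR-182-5p: uUUGGCAAugguagaacucaca
miR-181a-5p: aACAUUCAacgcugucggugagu
miR-181b: aACAUUCAuugcugucgguggg
miR-183: uAUGGCACugguagaauucacug
miR-204: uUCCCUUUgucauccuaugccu
miR-26: uUCAAGUAauccaggauaggc
miR-92a: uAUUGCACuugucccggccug
miR-100: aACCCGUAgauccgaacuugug
miR-9-5p: uCUUUGGUuaucuagcuguaug
miR-9a-5p: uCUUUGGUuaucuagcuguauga
miR-184: uGGACGGAgaacugauaaggcu
miR-148a: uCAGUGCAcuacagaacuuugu
miR-22-3p: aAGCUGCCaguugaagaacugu
miR-30d: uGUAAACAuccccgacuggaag
The miR-9-5p entry lies whole inside the miR-9a-5p entry, which is longer by its last base, and both carried the same 140904 counts. They were kept as separate sequences because they are not identical, so their reads enter sums over sequences more than once.

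The orphan library held 22538325 counts over all entries, against 865654 for sibling and 5188106 for non-sibling. The distinct Xenopus sequences took 4476499 counts, 19.9% of the orphan total. This sum is the denominator of the shares below unless other processing or another total is named. With overlapping entries counted once (contained sequences merged) the sum was 4334408, the denominator of the shares given for that case. Entries of many species list the same reads of a conserved microRNA, so the total over all entries counts such reads repeatedly. Intervals are exact 95% binomial intervals (Clopper-Pearson) that treat every read as an independent draw. They cover no more than counting error, and are too narrow even for that where several reads come from 1 amplified molecule. Counts are numbers of reads, and the efficiency with which each microRNA entered the library was not measured.

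miR-182-5p, of the miR-183 cluster known from sensory organs, was the most abundant microRNA, with 799947 counts or 17.9% of the Xenopus counts (17.83 to 17.91%). It was followed by miR-181a-5p, of a family abundant in brain, retina and lymphocytes, with 507792 counts or 11.3% (11.31 to 11.37%). miR-183, made from the same cluster as miR-182, had 340485 counts or 7.61% (7.58 to 7.63%). These leading 3 sequences together held 36.8% of counts (36.77 to 36.86%). miR-204, known from the pigment epithelium of the eye, the lens and the choroid plexus, had 281701 counts or 6.29%. The broadly expressed miR-26 had 197369 counts or 4.41%, and miR-92a, of the miR-17-92 cluster of dividing cells, 183596 counts or 4.10%. miR-100, a companion of let-7 and miR-125 in conserved clusters, had 160728 counts or 3.59%. miR-9-5p, of neural progenitors and neurons, had 140904 counts or 3.15%, and miR-184, known from epithelia of the eye, 140443 counts or 3.14%.

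The next ranks were held by miR-181b (133643 counts), miR-148a (124447), miR-22-3p (107362) and miR-30d (105621). Below 100000 counts came miR-92b (83298), miR-125a (58918), the muscle microRNA miR-133a (58043), miR-205a of stratified epithelia (53674), miR-27b (49498) and miR-130b (46097). The 20 most abundant sequences held 83.0% of counts (82.94 to 83.01%). As a group they thus mix microRNAs known from sensory cells, eye epithelia, neural tissue, dividing cells, muscle and skin. For most of these only some of the known members were so abundant. By the lists described below, the 20 held 2 of 4 sensory organ sequences and 2 of 2 for eye and choroid plexus. They held 2 of 16 for neuron, 2 of 18 for miR-17-92 and its paralogs, 1 of 9 for muscle and 1 of 3 for skin. The 2 for neuron were the overlapping miR-9-5p and miR-9a-5p, which list the same reads. Over all members it was 20 of 170, to which the fractions for neuron, miR-17-92 and muscle were close.

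**Figure D1:**
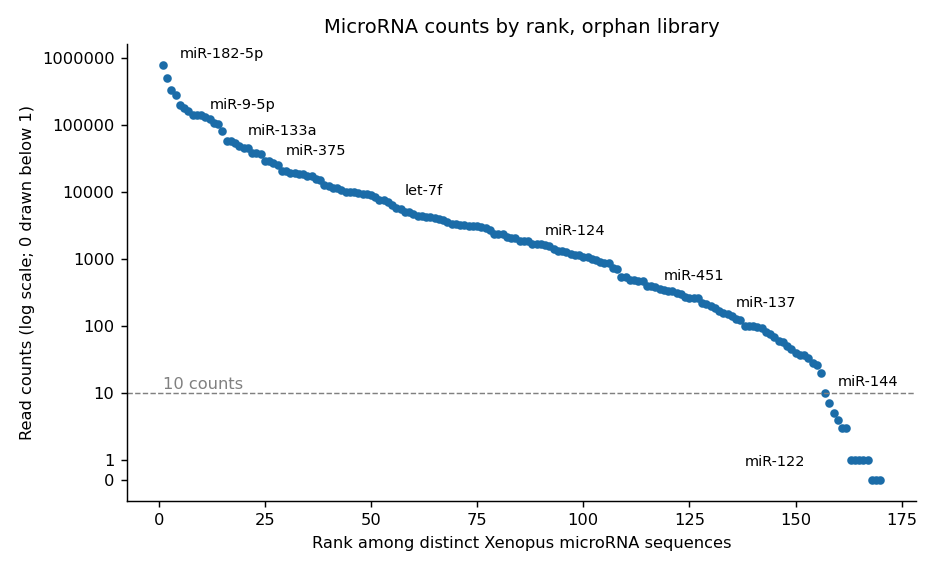
Read counts of the 170 distinct Xenopus sequences in the orphan library, 1 point per sequence, against their rank; the vertical axis is logarithmic, with 0 drawn below 1, and the dashed line marks 10 counts. miR-182-5p leads with 799947 counts, miR-124 stands at rank 87 with 1843, and 14 sequences lie at or below the line.

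The order of close neighbours in this ranking was less certain than the binomial intervals alone imply. For 119 Xenopus sequences the table also listed the identical sequence under another species. The counts of both entries show how far the listed count depended on the entry. Both can list the same reads, so they are no repeat measurement. The counts were equal for 55 sequences and unequal for 64, with a median of 1.0004-fold and a 95th percentile of 1.13-fold between the entries. That percentile is pooled over abundant and rare sequences. Among the 19 neighbouring pairs of the leading 20 sequences, 10 differed by no more than that, although for 17 pairs the binomial interval of the ratio excluded 1. The 10 include miR-9-5p beside miR-9a-5p, which are equal because their overlapping entries list the same reads. miR-26 was 1.08 times miR-92a, and miR-184 was 1.05 times miR-181b, so by that percentile neither pair was set apart. For miR-92a the order depended on the entry. It had 183596 counts under its X. tropicalis entry and 220561 under the identical medaka entry, which would place it above miR-26. The identical entries of miR-181b differed less, with 133643 and 133268 counts. The places of miR-182-5p, miR-181a-5p, miR-183 and miR-204 were set apart by larger steps. miR-182-5p was 1.58 times miR-181a-5p (1.57 to 1.58), miR-181a-5p was 1.49 times miR-183, miR-183 was 1.21 times miR-204 and miR-204 was 1.43 times miR-26. The largest disagreement between identical sequences was 11.1-fold, for miR-126-3p of vascular endothelium, with 11469 counts under the X. tropicalis entry and 1032 under a zebrafish entry.

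Counts were concentrated in few sequences. Of the 170, 6 sequences were enough for 50% of all counts, 31 for 90% and 83 for 99%. The effective number of microRNAs (the inverse Simpson index, the number of equally abundant sequences that would give the same concentration) was 14.9. The median sequence had 1876 counts, so that miR-182-5p stood 426 times above it, and 27 sequences exceeded the mean of 26332 counts. The 85 lowest sequences of the ranking held 0.872% of counts in all. By size, 14 sequences had 100000 or more counts and held 75.2% of the total, 32 had 10000 to 99999 (19.9%), 56 had 1000 to 9999 (4.56%) and 37 had 100 to 999 (0.317%). A further 17 had 11 to 99 counts, 11 had 1 to 10, and 3 had none. Abundance was therefore narrow, although 167 of 170 sequences were read at least once. How entries came to be listed is not given, so the 167 do not measure how broad detection was.

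**Figure D2:**
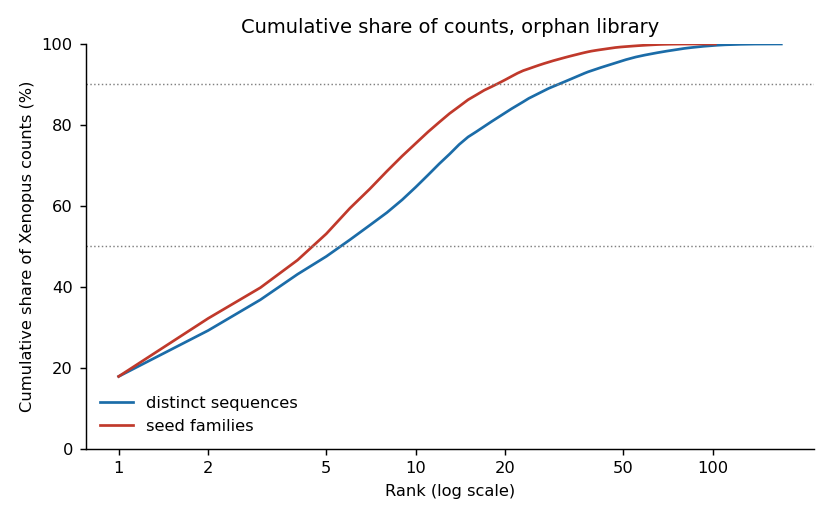
Cumulative share of the Xenopus counts of the orphan library (percent) against rank on a logarithmic axis, for the 170 distinct sequences and for the 102 seed families; dotted lines mark 50% and 90%. The sequences reach 50% at rank 6 and 90% at rank 31, the families at ranks 5 and 19.

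Grouped by seed, the sequences formed 102 families, 68 with 1 member and 34 with several. The miR-182 seed, with miR-182-5p as its 1 member, led with 17.9% of counts. The miR-181 seed (ACAUUCA) held 641435 counts or 14.3% (14.30 to 14.36%), of which miR-181a-5p made up 79.2%, and miR-181a-5p was 3.80 times as abundant as miR-181b. The miR-183 seed (AUGGCAC) followed with 7.61%. It differs from the miR-182 seed, so these neighbours in the genome are not members of 1 seed family.

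The family of miR-25, miR-92, miR-363 and miR-367 (seed AUUGCAC) came next with 304654 counts or 6.81% (6.78 to 6.83%) over 6 members. miR-92a made up 60.3% of it, miR-92b had 83298 counts, miR-363-3p 17274, miR-25 10699, the X. borealis entry of miR-92a 9686 and miR-367 101. The miR-9 family (seed CUUUGGU) reached 291207 counts or 6.51% with both overlapping entries at family rank 5. With the overlapping entries counted once it had 150303 counts or 3.47% at family rank 9, and miR-9b-5p contributed 9399 of these. Its place thus depended on that choice, whereas the families of miR-182, miR-181, miR-183 and miR-92 kept ranks 1 to 4 under both.

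miR-204 was the 1 member of its seed family and held 6.29%. The miR-30 family (seed GUAAACA), broadly expressed, had 213346 counts or 4.77% spread over 5 members, with miR-30d at 49.5% of the family, miR-30c at 45291 counts, miR-30e at 29265, miR-30a-5p at 27323 and miR-30b at 5846. miR-26 (4.41%), the miR-99 and miR-100 family (3.73%), miR-184 (3.14%), the miR-148 family (2.83%) and miR-22-3p (2.40%) came next. The miR-133 family of striated muscle held 2.15%, the miR-130 and miR-301 family 1.74% and the miR-125 family 1.65%. The 15 leading families together held 86.2% of counts, and the median family had 2124 counts.

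**Figure D3:**
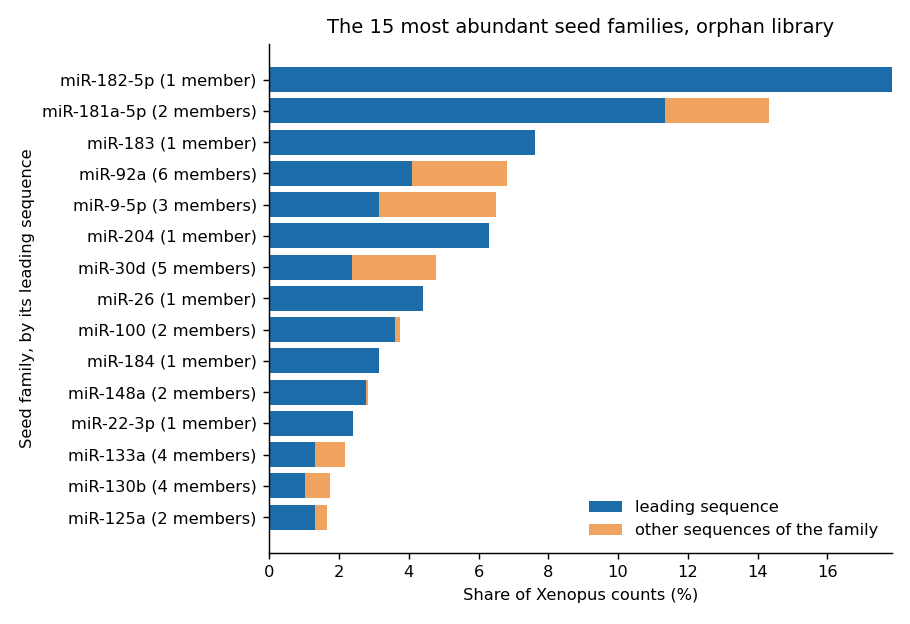
Share of the Xenopus counts of the orphan library (percent) for the 15 most abundant seed families, named by their leading sequence with the number of members; the dark part of each bar is the leading sequence and the light part the other members. The miR-182-5p bar reaches 17.9%, the leading sequence holds 49.5% of the miR-30d bar, and the light part of the miR-9-5p bar is almost all miR-9a-5p, whose reads are the same.

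Families differed in how far 1 member outweighed the others. Of the 34 families with several members 20 had 2, in which the larger holds at least 50% by construction. In 9 of the 14 families with 3 or more members the leading sequence held over 50% of the family's counts, with a median of 59.1%. Among the 14 were the families of miR-9 (48.4%) and miR-29 (46.8%), whose leading shares are lowered by overlapping entries that list the same reads. With those entries counted once, miR-9a-5p had 140904 of 150303 counts and miR-29a 37 of 42. In 7 of the 34 families the leading sequence held over 90%, among them the low families of miR-33 (28 of 31 counts) and miR-196 (1 count in all). miR-205a, of stratified epithelia, had 53674 counts against 94 for miR-205b, a ratio of 571 between sequences with the same seed. miR-146b, of a family known from immune signalling, had 20730 counts against 76 for miR-146a, a ratio of 273. miR-148a was 53.3 times miR-148b. The lowest leading share was 36.7%, held by miR-17-5p in its seed family. The let-7 family, which marks differentiated cells, was nearly as evenly spread, with 19265 counts over 8 sequences and let-7f (7201 counts) at 37.4% of them. let-7a had 4089 counts, let-7c 3549 and let-7e 3135, followed by let-7i (484), let-7g (358), miR-98 (266) and, lowest, let-7b (0.00409% of the Xenopus counts). With 0.430% of counts (0.424 to 0.436%) let-7 ranked 26th among the families.

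The microRNAs were also grouped in 22 lists, 15 by the tissue, cell type or stage they are known from and 7 by family or cluster. The 15, called tissue lists here, include the Hox cluster and miR-200 lists, whose members were picked by cluster and family. The 15 tissue lists covered 81 of the 170 sequences and 52.9% of counts, and all 22 lists together 90.4% of counts. The list of the miR-183 cluster (miR-182, miR-183 and miR-96), known from sensory organs, had the largest share, 25.5% (25.47 to 25.55%), of which miR-182-5p made up 70.0%. Its other members were miR-183 with 340485 counts, miR-96 with 1652 and miR-182-3p, the other arm of the miR-182 precursor, with 45. The eye and choroid plexus list (miR-204 and miR-184) held 9.43%. In bulk tissue, many cells with little of a microRNA and few cells with much of it cannot be told apart.

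The neuron list (miR-9, miR-124, miR-128 and others) held 7.90% over 16 sequences, or 4.91% with contained sequences merged. Its sequences ran from 69 counts upwards, and its median of 2774 counts stood beside 1876 over all 170 sequences. With contained sequences merged, the middle sequence of the list was miR-7 with 2389 counts, beside a median of 1959.5 over all. Most of its share came from miR-9-5p, miR-9a-5p and miR-128 (38916 counts, 0.869%), a brain microRNA that restrains neuronal excitability. miR-138, which acts at dendritic spines, had 4394 counts, miR-132, which follows neuronal activity, 4199, and miR-7, of neuroendocrine cells, 2389.
miR-124, known as the most abundant neuron-specific microRNA in mammalian brain, had 1843 counts, or 0.0412% (0.0393 to 0.0431%), at rank 87. Its sequence is shown as listed, and among the 18 entries named miR-124 in any species the highest had 1905 counts.
miR-124: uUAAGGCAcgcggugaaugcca
miR-182-5p exceeded it 434-fold and miR-9-5p 76.5-fold. miR-218, of motor and other projection neurons, had 1669 counts, miR-137 had 154 and miR-153 had 69. Of the microRNAs known from neural tissue, miR-9 and miR-128 were thus among the abundant ones, miR-124 was near the median of all sequences, and miR-137 and miR-153 were lower.

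MicroRNAs known from other tissues and cell types were present beside these. The muscle list held 102399 counts or 2.29% over 9 sequences, against 7.90% for the neuron list, or 4.91% with contained sequences merged. It had miR-133a at 58043, miR-133c at 25134, miR-133b at 10169, miR-206 at 3192 and miR-1a at 1576. The heart and slow muscle microRNAs miR-499 and miR-208 had 1073 and 33 counts. The list of mesenchyme and cartilage held 1.98%, with miR-199a-3p at 37537, miR-199a-5p at 19428, miR-199b at 15715, the cartilage microRNA miR-140 at 8398 and miR-214 at 7610. The vessel list held 1.54%, with miR-143 of smooth muscle at 38516 counts and miR-126-5p of endothelium at 17613. Its other members were miR-126-3p at 11469, or 1032 under the identical zebrafish entry, and miR-145, of the miR-143 cluster, at 1403. The skin epithelium list held 1.43%, with miR-203 at 10194 counts beside miR-205a. The miR-200 list of epithelia and olfactory neurogenesis held 0.952%, with miR-200b at 19141, miR-429 at 18721 and miR-200a at 4737. The part that cells outside the bulb had in these counts was not tested.

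Other tissue lists were low. The digestive list held 0.860%, of which miR-375, also known from endocrine cells, made up 74.6% with 28709 counts. miR-215 and miR-192 of the gut had 5086 and 4272 counts, the pancreatic miR-217 had 40 and the liver microRNA miR-122 had 1. The leukocyte list held 0.700%, but apart from miR-146b and miR-150 (10161 counts) its members were scarce, with miR-155 at 0.00485% of the Xenopus counts, miR-223 at 58 counts and miR-142-5p at 50. The red blood cell microRNAs miR-451 and miR-144 had 391 and 10 counts, 0.00896% together. For miR-144 this is the Xenopus entry alone, and cgr-miR-144, with another seed, had 245 counts. The ciliated cell list (miR-34 and miR-449) held 0.0459%, led by miR-449c-5p with 957 counts. The early embryo list held 0.154%, or 0.133% with contained sequences merged. The X. laevis entry of miR-427 (1149 counts) lies inside that of X. tropicalis. With identical sequences summed, which adds equal counts of the same sequence again, the list held 0.251%. It was led by miR-428 with 4362 counts, and miR-427, which clears maternal messages in the Xenopus embryo, had 1152. The Hox cluster list held 0.134%, with miR-10b at 3813, miR-10a at 1871 and miR-10c at 305 counts, against 1 and 0 for miR-196a and miR-196b. The oligodendrocyte list had 64 counts in all, 60 of them miR-338. The remaining lists held 14.8% (miR-181, both arms), 7.28% (miR-17-92 and its paralogs), 5.38% (miR-99, miR-100 and miR-125), 4.79% (miR-30), 4.41% (miR-26) and 0.342% (miR-103 and miR-107).

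**Figure D4:**
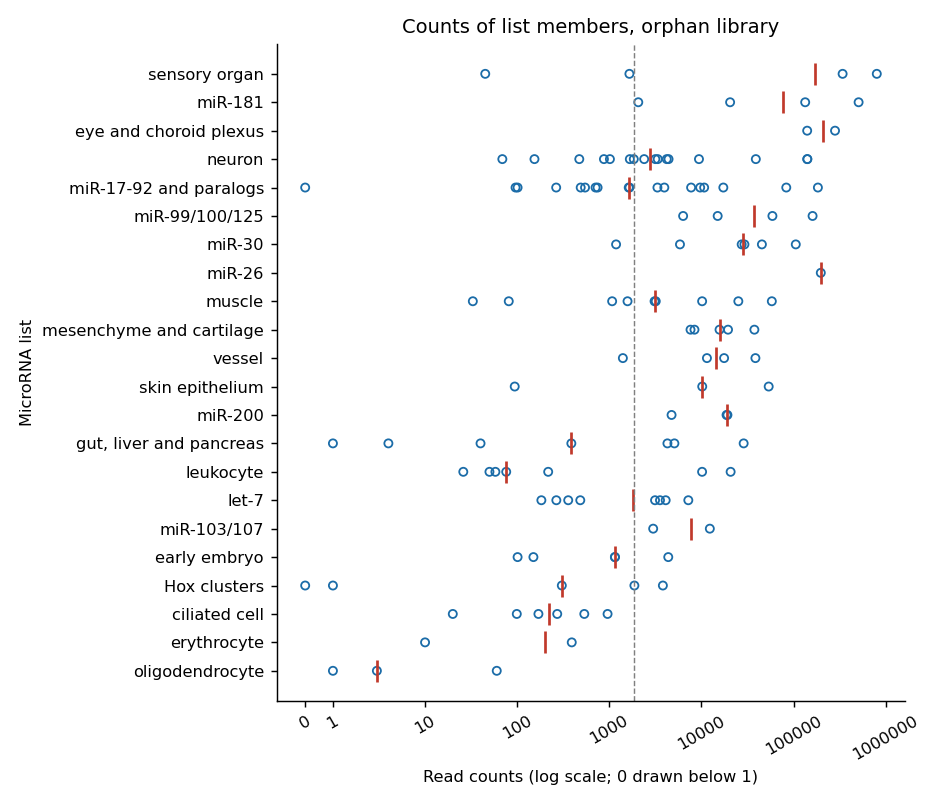
Read counts of the members of 22 microRNA lists in the orphan library, 1 open circle per distinct sequence on a logarithmic axis with 0 drawn below 1; red ticks are list medians and the dashed line is the median of all 170 sequences, 1876 counts. Lists run from the largest summed count at the top to the smallest at the bottom; sensory organ spans 45 to 799947 counts, and all members of the ciliated cell, erythrocyte and oligodendrocyte lists lie left of the line.

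MicroRNAs that vertebrates are known to make from 1 primary transcript differed widely in count. Over 16 such clusters the median ratio of the highest to the lowest member was 10.5, and it exceeded 10 in 8 and 100 in 3 clusters. Each member was counted by its Xenopus entry, so cgr-miR-144 was left out of the cluster of miR-451 and miR-144. miR-182-5p had 484 times the counts of miR-96 (461 to 508), although both belong to the miR-183 cluster, and 2.35 times those of miR-183. In the miR-17-92 cluster miR-92a exceeded miR-19a, with 489 counts, 375.5-fold (344 to 411), and exceeded miR-17-5p, with 3954 counts, 46.4-fold. Its other members were miR-19b (1655), miR-20a-5p (1624) and miR-18a-5p (746). The table does not separate genomic copies of a precursor. miR-27b had 49498 counts, miR-23b 2398 and miR-24a-3p 340, a range of 145.6-fold. miR-1a, which shares its transcripts with miR-133a, had 1576 counts, and the ratio was 36.8. In contrast miR-25 and miR-93a differed by 1.39-fold (1.35 to 1.43) and miR-302 and miR-367 by 1.49-fold on 150 and 101 counts. Differences between the arms of 1 precursor reached further still, with 799947 counts of miR-182-5p and 45 of miR-182-3p.

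**Figure D5:**
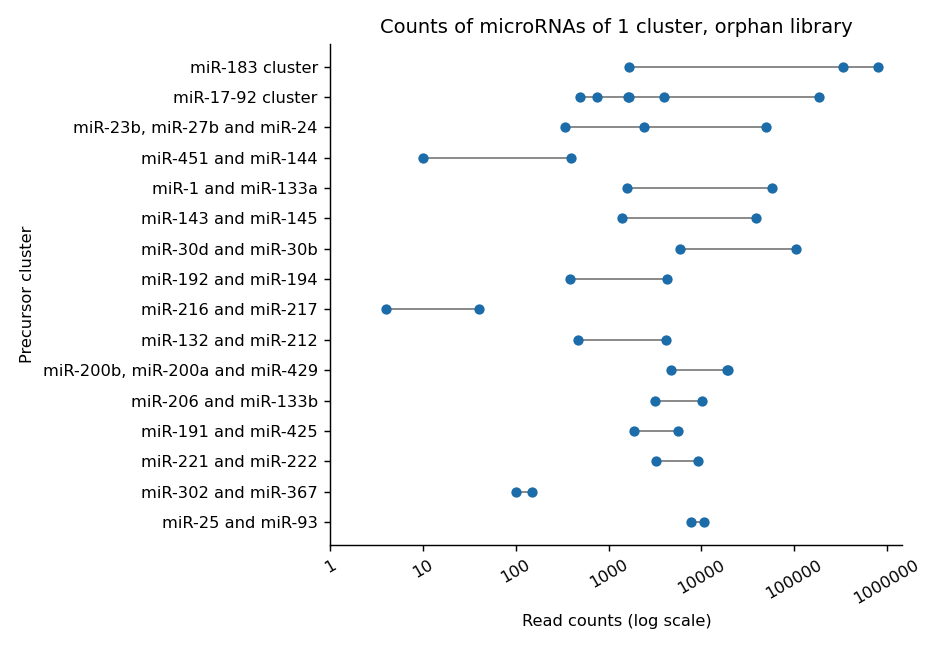
Read counts, on a logarithmic axis, of the microRNAs of 16 precursor clusters in the orphan library; each point is 1 sequence and the line joins the lowest and the highest member. The clusters are ordered by that ratio, from 484 for the miR-183 cluster at the top to 1.39 for miR-25 and miR-93 at the bottom.

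At the low end, 14 of 170 sequences had 10 or fewer counts, and 9 of 102 seed families had 10 or fewer in sum. A single count was 2.23e-05% of the Xenopus counts. The limit fell in a gap, with miR-449b-3p (20), miR-142-3p (26) and miR-33b (28) above it, and miR-144 (10), miR-29c-5p (7) and miR-29d (5) at or under it. The low families are shown with their sequences, nearly all of them as listed for X. tropicalis; how they match X. laevis was not tested.
miR-144: uACAGUAUagaugauguacua
miR-29c-5p: uGACCGAUcucucuugguguuc
miR-216: uAAUCUCAgcuggcaacugug
miR-219: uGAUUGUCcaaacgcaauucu
miR-320: aAAAGCUGgguugagagguga
miR-196a: uAGGUAGUuucauguuguugg
miR-122: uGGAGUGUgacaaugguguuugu
miR-202-5p: uUUCCUAUgcauauaccucuuu
miR-92b of X. borealis: uACUGCACucgucccggccuagc
miR-144, known from red blood cells, had 10 counts (0.000223%). miR-216 of the pancreas and miR-219, which drives oligodendrocyte maturation, had 4 counts each as families. The families of miR-320, of miR-196 from the posterior Hox clusters, of miR-122, known from liver, and of miR-202-5p, known from the gonads, had 1 count each. The X. borealis entry of miR-92b had none, and its seed differs from that of the abundant miR-92b of X. tropicalis.

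Entries of other species with the same seed were about as low. They reached 11 counts for miR-144, 4 for miR-216, 3 for miR-219, 4 for miR-320 and 1 each for miR-196 and miR-122, and the table held none with the seeds of miR-29c-5p, miR-202-5p or the X. borealis miR-92b. The low counts of miR-216, miR-219, miR-320, miR-196 and miR-122 were shared by every such entry in the table. For miR-216, miR-219, miR-196a and miR-122 such entries include the identical sequence with an equal count. They can list the same reads, so their agreement adds no separate evidence. The miR-29 family (seed AGCACCA), which rises as neurons mature in mammals, was also low. miR-29a and the contained miR-29c-3p had the same 37 counts, miR-29d had 5, and miR-29b had 0, which allows a share of up to 6.70e-05% by a floor of 3 counts of 4476499, or 8.24e-05% by the upper end of the exact interval.

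Abundant and rare sequences had similar lengths, and median GC content was lower among the rarest. Sequences of 22 bases made up 47.1% of the members and 59.6% of counts, and lengths ran from 17 to 26. Median GC content was 45.5% in the 14 sequences with 100000 or more counts, 47.7% in the 32 below them, 42.9% in those with 100 to 999 counts and 39.1% in the 11 with 1 to 10. U was the first base, the base that Argonaute proteins favour, in 62.9% of the 170 sequences, and these held 72.9% of counts, or 67.1% without miR-182-5p. By abundance its share of sequences showed no single direction, at 71.4% of those with 100000 or more counts, 55.4% of those with 1000 to 9999 and 81.8% of the 11 with 1 to 10. A came first in 22.4% of sequences with 23.2% of counts, C in 11.2% with 3.61%, and G in 3.53% with 0.289%. These shares are a description of 1 library, in which each abundant sequence weighs heavily.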

How the data were processed

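The deposited table gives raw read counts per mature microRNA entry, per the file headers. It also holds a signal made by the authors, quantile-normalized counts, used only as an alternative, and log2 ratios between libraries deposited by the authors, which were not used. Aligner, counter and microRNA release: not given in the sources used here. A messenger RNA preparation kit is named in the labels' protocol, so the library method is not settled. The 1 unnamed line was left out.

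Xenopus entries were those with prefix xtr (166), xla (9) or xbo (3). Of these, 8 sequences were listed in 2 entries with equal counts, and the highest count was kept. Of the xla sequences 8 equal an xtr one, so nearly all counts rest on X. tropicalis sequences. Families share bases 2 to 8. Named microRNAs are the 20 most abundant, the leading sequences of the 15 largest families and of each list, the families at 10 or fewer counts and the 3 sequences nearest to that limit on each side; sequences that illustrate clusters, families and lists further were named after their values were seen. Members, lists and clusters were chosen with earlier results of these data known. Shares have exact 95% Clopper-Pearson intervals. The calculation was tested on counts simulated as independent reads at the observed shares, which is the model the intervals assume. That test does not cover amplified reads or reads listed more than once. Python 3.11.15, numpy 2.4.6, pandas 2.3.3, scipy 1.17.1 and matplotlib 3.10.9 were used.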

Additional observations from a re-analysis of the deposited data

Results flagged for a closer look

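Entries outside the Xenopus names carried counts above a floor of 3 counts, and there is no control library to set them against. cgr-miR-144 had 245 counts, whereas the Xenopus entry of miR-144, which has the seed of the 3p entries of other species, had 10. Its sequence lies inside the one listed as the 5p arm of miR-144 in mouse.
cgr-miR-144: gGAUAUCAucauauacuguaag
hsa-miR-216a-3p had 119 counts, against 4 for the Xenopus entry of miR-216, which has another seed (AAUCUCA against CACAGUG). The seed of hsa-miR-216a-3p is also that of miR-128, which had 38916 counts. Whether reads of miR-128 are among the 119 counts was not tested. dre-miR-454b, whose number has no entry under a Xenopus prefix in the table, had 65806 counts, which would place it at rank 16 among the Xenopus sequences. It has the seed AGUGCAA of the miR-130 and miR-301 family.
dre-miR-454b: uAGUGCAAuauugcuuauaggg
Next among such entries by number was sha-miR-21, with 20082 counts, which would place it at rank 31.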

How the results depend on the processing

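No replicate could be left out, since there is 1 library. No paired analysis was possible because each condition has 1 library and no contrast was made. The share of miR-182-5p, which is also that of its seed family, was 17.8% with identical sequences summed, 18.5% with contained sequences merged, 17.9% with xtr entries alone, 17.04% in the authors' quantile-normalized column and 3.55% of all entries of the table. Without miR-182-5p the leading share was 13.8% (miR-181a-5p) and the leading family was miR-181 with 17.4%. The 10 leading sequences held 64.6%, and under the same alternatives 64.3%, 66.6%, 64.8%, 63.7% and 12.8%, or 60.6% without miR-182-5p. Families at 10 or fewer counts numbered 9. At a limit of 3 counts they numbered 5, and at 30 counts 11. Families by number gave 7, xtr entries alone 8 and the quantile-normalized column 10. Counting entries of any species with the same seed, chosen after seeing the data, gave 8. The effective number ran from 14.2 to 19.2, and 6 to 8 sequences held 50% of the counts. Sequences with few counts are limited by depth: at 1 count the interval spans 5.66e-07 to 0.000124% of counts.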
